A study of Mus musculus with 16 samples.

Results

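Chemokines are small secreted proteins that guide leukocytes, and their receptors are G protein-coupled receptors on the cells that follow them. The members described here are the mouse genes whose symbol on the array is Ccl, Cxcl, Cx3cl, Ccr, Cxcr or Cx3cr followed by a number. They came to 48 of the 18138 gene symbols on the array, with 62 of its 25697 probes. Of these 48 genes, 32 are ligands and 16 are receptors. RNA was taken from fallopian tubes of immature female C57BL/6N mice, 3.5 to 5 weeks old, which had received no hormone priming, and was measured on MouseRef-8 v2 BeadChips of Illumina. The tubes were opened, cut and held in culture medium with 100 nmol/L progesterone, dissolved in ethanol to 0.01% v/v, or with the same ethanol alone. There were 4 groups of 4 arrays, which are the control and the progesterone samples of 20 min and of 2 h. Each sample pooled 6 tubes of 3 animals, and a code in the labels joins each control to a progesterone sample, which gives 4 pairs per time. Whole pieces of wall were used, so the epithelium, smooth muscle, stroma, vessels and resident leukocytes are in one RNA. In such bulk samples, fewer cells of a type and less RNA per cell cannot be told apart.

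Ligands with the letters CXCL and an N-terminal ELR motif, such as Cxcl1 and Cxcl2, draw neutrophils through the receptor Cxcr2, while the interferon-induced ligands Cxcl9, Cxcl10 and Cxcl11 draw T and NK cells through Cxcr3. CC ligands such as Ccl2, Ccl3, Ccl4 and Ccl7 draw monocytes and other leukocytes. Cxcl12 is made by stroma without an inflammatory stimulus and binds Cxcr4, and Cx3cl1 (fractalkine) is a membrane-bound ligand of Cx3cr1, the receptor of monocytes and tissue macrophages. Many inducible chemokine genes are textbook targets of NF-kB, the factor that IL-1, TNF and microbial ligands activate, and the progesterone receptor can restrain that pathway in the uterus and in labour.

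The results are differences between arrays in log2 signal. A signal is the quantile-normalised intensity of a probe, which is on 1 scale for all arrays. Signals of different genes come from different probes and were not set against each other, except to choose the brightest genes for naming. A gene was measured where at least 1 probe had a detection p-value under 0.5, a signal above the median of the negative controls, on at least 13 of the 16 arrays. This left 30 of the 48 genes, 24 ligands and 6 receptors, and no measured gene could pass through 1 group alone. The brightest probe stood for a gene with several. The 16848 probes that passed are the background against which each count is set.

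The ligands were broadly detected and the receptors largely were not. With a detection p-value under 0.05, 17 genes were detected on all 16 arrays, of which 16 were ligands and 1, Cxcr4, was a receptor. Another 15 genes were detected on 1 to 15 arrays, and 16 genes, 6 ligands and 10 receptors, on none. Per array, 28 to 34 of the 62 member probes were detected, beside 13222 to 14267 of all 25697 probes, which is a similar share. The ligands detected on every array included the neutrophil attractant Cxcl1, the epithelial and mucosal ligands Cxcl14, Cxcl16, Cxcl17 and Ccl25, the monocyte ligands Ccl3, Ccl4 and Ccl7, and Cxcl12. The receptors of many of these ligands gave no signal above the negative controls. The main receptor of Cxcl1 and Cxcl2, Cxcr2, is listed under its older name Il8rb, which the gene rule does not take in, and its 2 probes were detected on 0 arrays. Its relative Cxcr1, listed as Il8ra, was detected on 2 arrays. Ccr1 and Ccr2 (receptors of Ccl3 and of Ccl2), Ccr3 (of Ccl11), Ccr9 (of Ccl25), Ccr10 (of Ccl27) and Cxcr6 (of Cxcl16) were detected on 0 arrays. Cxcr3, the receptor of Cxcl10, was detected on 1 array, a progesterone sample of 2 h. Cx3cr1 was detected on 9 arrays. An array probe that stays at the level of the negative controls does not show that a receptor is absent, since a receptor carried by few cells of the tube wall can lie under that level.

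Beside these levels, the markers of leukocytes were uneven. All 13 tested symbols of macrophage markers with their brightest probe, among them C1qb, Lyz2 and Mrc1, were detected on all 16 arrays. Lyz2 and Lyzs are counted there as separate symbols. Itgam and Ptprc, which are on the same list, were detected on 0 arrays and did not pass the rule for testing. Of the neutrophil markers, S100a8 was detected on 0 arrays, S100a9 on 1 and the brightest Csf3r probe on 2, while Camp and Mmp9, which other cells also make, were detected on 16. Of the T and NK cell markers, Cd3e and Lck were detected on all 16 arrays and Cd4, Cd8a and Nkg7 on 0. The tube itself was well marked, since the secretory cell glycoprotein gene Ovgp1, the cilia gene Tekt1 and the smooth muscle actin gene Acta2 were detected on 16 arrays.

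Between 20 min and 2 h in control medium, 8 of the 30 measured chemokine genes rose and 5 fell. Those that rose were the ligands Cxcl10, Cxcl1, Cxcl16, Cxcl17, Cxcl2, Ccl2, Cx3cl1 and Ccl7, from 3.11-fold for Cxcl10 to 1.37-fold for Ccl7. Those that fell were the ligands Ccl4, Ccl3 and Cxcl12 and the receptors Cx3cr1 and Cxcr4. The call was an adjusted p of at most 0.05 in limma with Benjamini-Hochberg adjustment over all 16848 probes (n = 4 arrays per group). Of all probes, 6.01% were called higher and 5.33% lower in this comparison. The 8 and 5 members are 26.7% and 16.7% of the 30. The median absolute difference was 0.24 over the members and 0.11 over all probes. In the progesterone samples, which are other arrays but are paired with the controls, 10 members rose (33.3%, beside 7.19% of all probes) and 5 fell (16.7%, beside 7.79%). All 13 genes called in the controls were called in the same direction in the progesterone samples, and the 2 further ones were Ccl5 and Ccl9. With median scaling of each array in place of quantile normalisation the progesterone samples had 6 members higher and 6 lower, beside 4.46% and 24.8% of all probes. With no normalisation they had 5 and 8, beside 2.29% and 37.2%. There 8 of 30 lower is a smaller share than over all probes. The controls with no normalisation had 4 and 5, beside 1.7% and 9.1%. With median scaling the controls lost the calls of Ccl7 and Cx3cl1, beside 3.26% of all probes higher and 9.19% lower. With no normalisation the median difference of all probes was -0.23 in the progesterone samples and -0.17 in the controls. The brightest probes of Cxcl12, Cxcr4 and Cx3cr1 have no definition in the table, and without such probes 2 members, Ccl3 and Ccl4, fell in each arm. No pair spans both times, so time in medium cannot be told apart from the animals of each time or from the chip, which the sources used here do not give.

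**Figure D1:**
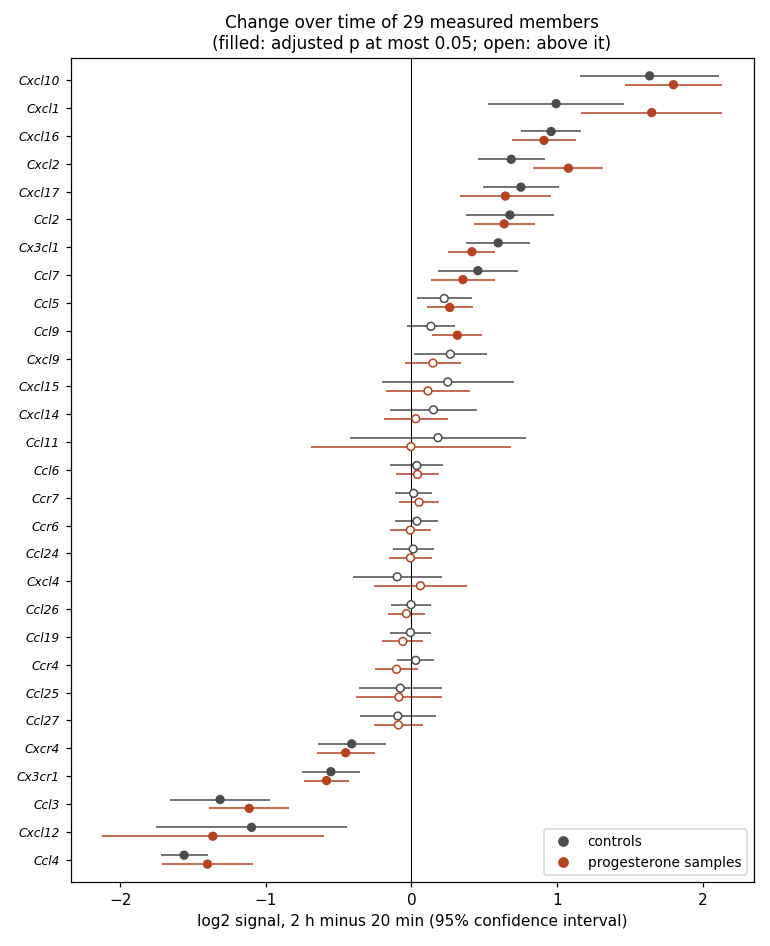
Difference in log2 signal between 2 h and 20 min for 29 measured members (points; bars are 95% confidence intervals), in the controls (grey) and in the progesterone samples (red), with filled points for an adjusted p of at most 0.05. Cxcl10 has the largest rise, 1.64 and 1.80, and Ccl4 lies at -1.56 and -1.40, while 14 members have open points in both arms.

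Cxcl1, which recruits neutrophils, had log2 signals of 9.32, 9.69, 9.82 and 10.30 in the controls of 20 min and 10.32, 10.89, 10.94 and 10.95 in those of 2 h. In the progesterone samples the values were 9.25, 9.45, 9.76 and 9.99 at 20 min and 10.67, 11.28, 11.39 and 11.70 at 2 h. Every array of 2 h was above every array of 20 min in its arm, narrowly in the controls. The rise was 0.99 ± 0.21 (SE, adjusted p = 0.015 in limma), or 1.99-fold, in the controls and 1.65 ± 0.22 (adjusted p = 0.00096 in limma), or 3.14-fold, in the progesterone samples. Without the 2 h control of pair 19n the adjusted p in limma was 0.0525, at a difference of 0.94, and with no normalisation it was 0.0659, at 0.74, so that the call in the controls was lost in both cases.

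Cxcl2, which shares the receptor of Cxcl1, lay at 7.07, 7.08, 7.13 and 7.17 in the controls of 20 min and at 7.57, 7.65, 7.94 and 8.03 in those of 2 h. In the progesterone samples it lay at 6.90, 6.95, 7.04 and 7.15 and then at 7.77, 8.16, 8.202 and 8.22. The times did not overlap in either arm. At 20 min it was detected on 4 of 4 control arrays and on 2 of 4 progesterone arrays. The rise was 0.69 ± 0.10 (SE, adjusted p = 0.0028 in limma) in the controls and 1.08 ± 0.11 (adjusted p = 0.00017 in limma) in the progesterone samples. Cxcl3, another ELR ligand, was detected on 1 array and was not measured. Of the neutrophil markers 0 of 5 tested were called in either arm. Their mean log2 level, centred over the arrays, ranged from -0.0026 to 0.05 in the controls of 20 min and from -0.15 to 0.10 in those of 2 h. In the progesterone samples it ranged from 0.0073 to 0.08 and then from -0.14 to 0.0060. Of the 5, S100a8, Csf3r and Ela2 were detected on only 0, 2 and 2 arrays, so these values cannot show whether neutrophils changed.

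Cxcl10, the interferon-induced attractant of T cells, rose most. Its signals were 7.15, 7.17, 7.40 and 7.59 in the controls of 20 min and 8.32, 8.91, 9.20 and 9.43 in those of 2 h, and the progesterone samples gave 7.18, 7.23, 7.25 and 7.38 and then 8.68, 8.91, 9.16 and 9.49. The rise was 1.64 ± 0.21 (SE, adjusted p = 0.0013 in limma) and 1.80 ± 0.15 (adjusted p = 4.7e-05 in limma). Its relative Cxcl9 was not called, with 0.27 ± 0.11 (adjusted p = 0.17 in limma) in the controls and 0.15 ± 0.09 (adjusted p = 0.31) in the progesterone samples. Cxcl11, which is a transcribed pseudogene in RefSeq, was detected on 0 arrays. None of the 6 tested T and NK cell markers was called in either arm. Of these, Cd3d, Cd3g, Cd8b1 and Klrb1c were detected on only 3, 7, 2 and 8 arrays, so a change in them would hardly show.

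Cxcl16, a transmembrane ligand of epithelium and macrophages, rose from 8.12, 8.26, 8.37 and 8.39 to 9.08, 9.16, 9.36 and 9.38 in the controls, by 0.96 ± 0.09 (SE, adjusted p = 0.00018 in limma). In the progesterone samples it rose from 8.23, 8.24, 8.32 and 8.34 to 9.002, 9.03, 9.30 and 9.44, by 0.91 ± 0.10. The groups of 20 min were narrow and lay clear of those of 2 h. The mucosal ligand Cxcl17 rose by 0.75 ± 0.12 and 0.64 ± 0.14, and the membrane-bound Cx3cl1 by 0.60 ± 0.10 and 0.42 ± 0.07. In both genes the times again did not overlap. Over the alternatives in the processing the rise of Cxcl17 reached 1.32 and 1.16. With no normalisation its call was lost in both arms (0.50 and 0.33, adjusted p = 0.0587 and 0.0644 in limma), as was that of Cx3cl1 (0.28 and -0.02). Cx3cl1 was not called under median scaling either, nor in the controls without pairs 19n and 15o (adjusted p = 0.0525 in limma). Of 6 tested markers of secretory epithelium, 3 that all epithelia share (Krt8, Krt18 and Cdh1) rose in each arm and 0 fell. The secretory cell genes Ovgp1 (-0.08 in the controls and -0.12 in the progesterone samples) and Wfdc2 (-0.36 and -0.13), and Pax8 (0.42 and 0.20), were not called. The centred mean level of the 6 ran from -0.32 to -0.08 in the controls of 20 min and from 0.09 to 0.21 in those of 2 h, and from -0.21 to -0.13 and then 0.12 to 0.31 in the progesterone samples, and its part in the result was not tested.

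The monocyte attractants Ccl2 and Ccl7, which lie side by side on chromosome 11, also rose. Ccl2 had 6.83, 6.84, 7.01 and 7.02 in the controls of 20 min and 7.32, 7.53, 7.53 and 8.02 in those of 2 h, a rise of 0.68 ± 0.13 (SE, adjusted p = 0.012 in limma), and it rose by 0.64 ± 0.09 in the progesterone samples. It was near the negative controls at 20 min, where 2 of 4 control arrays and 1 of 4 progesterone arrays detected it, and all 8 arrays detected it at 2 h. With a background correction before normalisation the rise in the controls was 1.80. The largest value over all alternatives in the progesterone samples was 1.77. Ccl7 rose by 0.46 ± 0.12 (adjusted p = 0.042 in limma) and 0.35 ± 0.10 (adjusted p = 0.039), and the times overlapped in both arms. The call was lost in both arms with no normalisation (0.18 and 0.0023) and with median scaling (0.29 and 0.15). It was also lost in the controls without any one array other than the 2 h array of pair 15o (adjusted p in limma up to 0.118), and in the progesterone samples without any one of 6 arrays (27n, 26n and 12n of 20 min, 6d, 30o and 15o of 2 h, adjusted p up to 0.105).

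Ccl5 and Ccl9 were called in the progesterone samples alone, with 0.26 ± 0.07 (SE, adjusted p = 0.032 in limma) and 0.32 ± 0.08 (adjusted p = 0.022, turning to -0.0064 with no normalisation). In the controls they had 0.23 ± 0.08 (adjusted p = 0.13 in limma) and 0.13 ± 0.07 (adjusted p = 0.31). The difference between the arms was 0.04 for Ccl5 and 0.18 for Ccl9, each with an adjusted p of 0.999 in the test of that difference in limma. With median scaling both calls were lost (0.21 and 0.14), as was that of Ccl5 with no normalisation (0.06). Both calls also depended on single arrays: that of Ccl5 was lost without any one of 6 arrays (26n, 12n and 22ob of 20 min, 6d, 19n and 15o of 2 h, adjusted p in limma up to 0.0877) and that of Ccl9 without any one of 5 (27n, 26n and 12n of 20 min, 30o and 15o of 2 h, up to 0.0668).

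Ccl4 and Ccl3, the macrophage inflammatory proteins 1 beta and 1 alpha, fell steeply in both arms. Ccl4 had 10.23, 10.32, 10.36 and 10.40 in the controls of 20 min and 8.69, 8.70, 8.75 and 8.92 in those of 2 h. It fell by 1.56 on the log2 scale (SE 0.07, adjusted p = 2.4e-06 in limma), which is 2.95-fold lower. The progesterone samples went from 9.96, 10.15, 10.31 and 10.56 to 8.56, 8.88, 8.88 and 9.07, which is 2.64-fold lower. Its second probe gave -0.89 and -0.88 (adjusted p = 0.00089 and 0.0014 in limma). The arrays of each time lay close together and far from those of the other time.

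Ccl3 had 7.995, 8.28, 8.66 and 8.77 in the controls of 20 min and 7.03, 7.10, 7.10 and 7.23 in those of 2 h, 2.49-fold lower (log2 -1.31 ± 0.15 SE, adjusted p = 0.00067 in limma). With a background correction before normalisation the log2 difference was -2.57. The progesterone samples went from 8.06, 8.11, 8.44 and 8.62 to 7.09, 7.15, 7.20 and 7.34, 2.17-fold lower. The groups of 2 h were narrow and low in both arms. Of 13 tested marker symbols of macrophages, a usual source of these ligands, 2 were called higher in each arm, Cd14 and Cd68, and 0 lower. The largest falls, which were not called, were those of Mrc1 (-0.42 in the controls and -0.46 in the progesterone samples) and C1qc (-0.35 and -0.31). The median difference of the 13 markers was -0.09 in the controls and -0.05 in the progesterone samples. Their centred mean level ranged from -0.18 to 0.16 in the controls of 20 min and from -0.31 to 0.23 in those of 2 h, and from -0.17 to 0.04 and then -0.05 to 0.22 in the progesterone samples, so the ranges overlapped.

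Of the 6 measured receptors, Cx3cr1 and Cxcr4 fell and the other 4 were not called. Cx3cr1 had 7.19, 7.37, 7.46 and 7.62 in the controls of 20 min and 6.81, 6.82, 6.89 and 6.92 in those of 2 h, while its ligand Cx3cl1 rose. It was detected on all 8 arrays of 20 min and on 1 of 8 at 2 h, a progesterone sample. As 0 of 4 controls of 2 h detected it, its level there is a bound, and it was at least 1.33-fold higher at 20 min (adjusted p = 0.0040 in limma). The bound sets the mean of the controls of 20 min, 7.41, against 6.998, the mean of the lowest signal of a detected probe on each 2 h array, and the measured mean at 2 h was 6.86. In the progesterone samples, where 1 of 4 arrays of 2 h detected it, the measured difference was -0.58 ± 0.07 (SE, adjusted p = 0.00055 in limma), and -1.67 with a background correction.

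Cxcr4, the receptor of Cxcl12, had 8.18, 8.37, 8.58 and 8.58 in the controls of 20 min and 7.92, 7.97, 7.99 and 8.19 in those of 2 h, where 1 array, of pair 6d, overlapped the lowest value of 20 min. The difference was -0.41 ± 0.10 (SE, adjusted p = 0.033 in limma) in the controls and -0.45 ± 0.09 (adjusted p = 0.0084) in the progesterone samples, which did not overlap. The call in the controls was lost without any one of 6 arrays (26n, 12n and 22ob of 20 min, 19n, 30o and 15o of 2 h, adjusted p in limma up to 0.098). For Ccr4, Ccr6 and Ccr7 the differences in both arms lay between -0.10 and 0.05. These 3 receptors were detected on only 0, 1 and 5 of the 16 arrays, so near the negative controls a change would hardly show.

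Cxcl12 fell in both arms, and its SDs within the groups of 2 h, 0.59 in the controls and 0.84 in the progesterone samples, were the largest among the 15 members called. It had 9.42, 10.06, 10.30 and 10.31 in the controls of 20 min and 8.19, 8.79, 9.09 and 9.61 in those of 2 h, a difference of -1.10 ± 0.29 (SE, adjusted p = 0.041 in limma). The progesterone samples had 10.07, 10.26, 10.47 and 10.57 and then 8.02, 8.54, 9.56 and 9.78, a difference of -1.36 ± 0.34 (adjusted p = 0.025 in limma). The times overlapped in the controls and not in the progesterone samples. The call was lost in the controls without any one of 6 arrays (27n, 26n and 22ob of 20 min, 19n, 30o and 15o of 2 h, adjusted p in limma up to 0.102) and in the progesterone samples without any one of 4 (27n, 26n and 22ob of 20 min, 30o of 2 h, up to 0.0784). The other 2 tested probes of the gene gave -0.69 and -0.53 in the controls (adjusted p = 0.14 and 0.12 in limma) and -0.80 and -0.56 in the progesterone samples (adjusted p = 0.066 and 0.034), and 2 more probes were detected on 0 arrays and not tested.

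The markers of stroma are given beside Cxcl12, which stromal cells make. Of 7 tested stromal fibroblast markers, Dcn fell in the controls, and Dcn and Col1a1 fell in the progesterone samples. The centred mean level of the 7 markers ranged from -0.26 to 0.86 in the controls of 20 min and from -1.61 to 0.35 in those of 2 h, and from -0.06 to 0.72 and then -0.93 to 0.41 in the progesterone samples. The control array of pair 15o was lowest of all 16 in the stromal level, at -1.61, and its Cxcl12 signal of 8.19 was the second lowest. The progesterone array of pair 19n had the lowest Cxcl12 signal, 8.02, and a stromal level of -0.93. Smooth muscle markers moved alike, with -1.32 on the former array and -1.03 on the latter. The part of the tissue makeup in the fall of Cxcl12 was not tested.

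**Figure D2:**
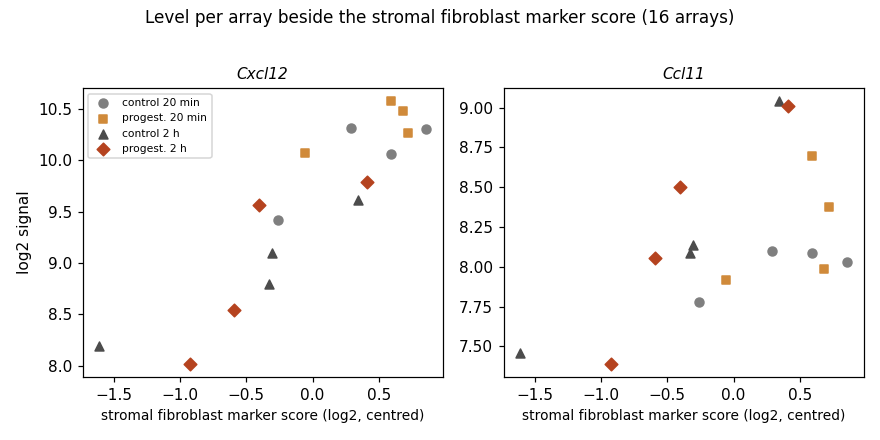
Log2 signal of Cxcl12 (left) and Ccl11 (right) on each of the 16 arrays against the centred mean log2 level of the 7 stromal fibroblast markers on the same array, with a symbol for each group. The arrays of 2 h reach down to -1.61 on the marker axis and to 8.02 for Cxcl12, and no test was made of the relation.

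Ccl11 (eotaxin, an eosinophil attractant), Ccl19, Ccl24, Ccl25, Ccl26, Ccl27, Ccl6, Cxcl14, Cxcl15, Cxcl4 and Cxcl9 were not called in either arm, with differences from -0.10 to 0.27. Of these, Ccl19, Ccl24 and Ccl26 were detected on only 2, 1 and 0 of the 16 arrays. So near the negative controls a change in them would hardly show. The interval for Ccl27, a ligand detected on all arrays, was -0.36 to 0.17 in the controls. That for Ccl11 was wide, -0.42 to 0.79, since its 2 h arrays ran from 7.46 to 9.04. Ccl17, the ligand of Ccr4, did not pass the detection rule and was not tested, but at 2 h 3 of 4 control arrays and 3 of 4 progesterone arrays detected it, and at 20 min 0 of 8 arrays did. Its 2 undetected arrays of 2 h were both those of pair 15o.

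Some neighbouring genes moved in the same direction, but not along whole clusters. In the order of RefSeq genes, Cxcl1 and Cxcl2 are adjacent on chromosome 5 and both rose, but Cxcl15, the next gene on the other side of Cxcl1, was not called. Ccl2 and Ccl7 are adjacent on chromosome 11 and both rose, while Ccl11, next to Ccl7, was not called. Ccl3 and Ccl4 are adjacent further along the same chromosome and both fell, while of the genes in a row before them Ccl5 and Ccl9, which are adjacent, rose in the progesterone samples, and Ccl6 was not called. Cx3cl1 lies between Ccl22, which was not detected, and Ccl17.

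The promoters of the 4 genes below are shown because the first 3 rose and the last fell with time, and because the NF-kB motif differs between them. RefSeq promoters (GRCm38.p6), from 250 bases before to 50 bases after a gene's start, were found for 19 of the 30 measured members, 23 promoters in all, since some have several starts. They were searched on both strands for the kappa B consensus, which is a match to NF-kB, for the core of the interferon-stimulated response element, for the AP-1 site TGANTCA, the steroid receptor half-site TGTTCT and the TATA box TATAAA, and no match of one motif overlapped one of another. Capitals mark the kappa B matches.
Cxcl1 (chr5:90890995-90891294, plus strand): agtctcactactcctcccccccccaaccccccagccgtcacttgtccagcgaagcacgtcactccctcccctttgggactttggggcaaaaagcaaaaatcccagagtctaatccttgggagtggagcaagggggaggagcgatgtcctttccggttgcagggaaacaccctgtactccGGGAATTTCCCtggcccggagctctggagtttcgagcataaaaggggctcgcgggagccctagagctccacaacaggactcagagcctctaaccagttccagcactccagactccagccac
Cxcl2 (chr5:90903649-90903948, plus strand): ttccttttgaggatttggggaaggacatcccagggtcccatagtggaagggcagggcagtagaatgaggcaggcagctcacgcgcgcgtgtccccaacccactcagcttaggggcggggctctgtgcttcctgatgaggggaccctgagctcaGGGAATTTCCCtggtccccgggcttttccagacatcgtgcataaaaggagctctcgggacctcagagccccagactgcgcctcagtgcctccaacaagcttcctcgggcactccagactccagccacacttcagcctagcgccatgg
Cxcl10 (chr5:92348840-92349139, minus strand): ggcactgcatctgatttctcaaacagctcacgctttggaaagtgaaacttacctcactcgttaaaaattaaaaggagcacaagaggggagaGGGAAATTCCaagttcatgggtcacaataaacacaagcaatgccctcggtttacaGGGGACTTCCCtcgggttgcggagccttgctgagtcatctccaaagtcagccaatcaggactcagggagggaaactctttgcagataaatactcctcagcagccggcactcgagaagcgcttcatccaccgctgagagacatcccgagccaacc
Ccl3 (chr11:83649329-83649628, minus strand): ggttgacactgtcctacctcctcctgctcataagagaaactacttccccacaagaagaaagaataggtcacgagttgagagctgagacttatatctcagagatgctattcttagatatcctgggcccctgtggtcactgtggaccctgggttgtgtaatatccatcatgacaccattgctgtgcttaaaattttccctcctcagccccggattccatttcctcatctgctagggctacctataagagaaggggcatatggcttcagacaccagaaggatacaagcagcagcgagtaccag

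Cxcl1 and Cxcl2 held the same stretch of 11 bases, GGGAATTTCCC, at positions -71 to -61 and -97 to -87 from their starts. Cxcl10 held 2 stretches, at -159 to -150 and -104 to -94, and was the only one of the 19 members with the interferon-stimulated response element core, which 0.371% of all 32851 promoters hold. The window of Ccl3 held no kappa B match. The consensus was in 8.46% of all promoters and in 6 of the 23 member promoters, each of another gene (Cxcl1, Cxcl2, Cxcl10, Ccl9, Ccl27 and Ccr6). By call, it was in at least 1 promoter of 3 of the 4 genes with a promoter that rose in both arms (not Cx3cl1). It was in 0 of 4 that fell (Ccl3, Cxcl12, Cxcr4 and Cx3cr1) and in 2 of 10 called in neither arm. Ccl9, the 1 gene with a promoter that rose in the progesterone samples alone, also held it. The steroid receptor half-site was in 4 of the 23 member promoters (Cxcl9, Cxcl14, Cxcr4 and Ccr6), beside 18.97% of all promoters. The AP-1 site was in 5, beside 7.81%, and the TATA box in 6, beside 13.6%. These are matches of letters and do not show that a factor binds there.

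The counts of related genes that follow stand beside 6.01% of all probes higher and 5.33% lower in the controls, and 7.19% and 7.79% in the progesterone samples. Of 35 tested genes of the NF-kB, IL-1 and TNF pathway, 18 rose and 1, Zfp36, which destabilises cytokine mRNA, fell in the controls, with a median of 0.47 beside -0.01 over all probes. In the progesterone samples 17 rose and Zfp36 fell, with a median of 0.39. Named members of that list were the adhesion molecule gene Icam1 (1.68 in the controls and 1.49 in the progesterone samples), the cytokine genes Il6 (1.47 and 1.65) and Csf3, which drives neutrophil production (0.69 and 1.02), the NF-kB subunit gene Rela (0.94 and 0.83) and the inhibitor gene Tnfaip3 (0.74 and 0.87). Of 16 interferon-response genes, 4 rose in the controls and 5 in the progesterone samples, led by Gbp2 (2.28 and 2.19). Of 15 immediate early genes, 2 rose and 5 fell in the controls (Jun -1.11, Egr1 -1.01, Fos -0.86, Junb -0.78 and Dusp1 -0.46), and 1 rose and 6 fell in the progesterone samples.

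Of 8 tested chemokine relatives that the gene rule leaves out, 2 rose in the controls. The atypical receptor gene Darc (Ackr1), which takes up and carries chemokines on venular endothelium and red cells, rose by 1.14 ± 0.13 (SE, adjusted p = 0.00044 in limma) and by 1.14 ± 0.22 (adjusted p = 0.0072) in the progesterone samples, and the atypical receptor gene Ccrl2 rose by 0.43 ± 0.11 and 0.34 ± 0.10. Of the 8 blood endothelium markers 0 were called in either arm. Of 16 genes of receptor signalling, 3 rose in the controls (Stat3, Jak2 and Rac1) and 2 in the progesterone samples (Jak2 and Rac1), and 0 fell. Ccbp2 rose and Rarres2 (chemerin) fell in the progesterone samples.

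No chemokine gene was called for progesterone against its paired control at either time by limma with the adjusted p limited to 0.20, the q-value threshold of the study. At 2 h the lowest adjusted p of a member was 0.9997, 1 of the 16848 probes was called (0.00594%) and 0 of the 30 members were, and at an unadjusted p under 0.05 there were 2 members, Cxcl1 and Cxcl2, beside 2.59% of all probes. By the paired SAM test with a q-value of 20%, which the study used, 17 probes were called at 2 h and 1 of them was the Cxcl1 probe, at 8.33%. The study likewise lists Cxcl1 among its genes higher with progesterone at 2 h. At 20 min 0 probes were called (0%), the members' lowest adjusted p was 0.948, and 3 members (Cxcl12, Ccl11 and Cxcr4) had an unadjusted p under 0.05, beside 5.03% of all probes. SAM called 1 probe at 20 min and 0 members. The median difference was 0.02 over the members and 0.00 over all probes at 2 h, and -0.02 and 0.00 at 20 min.

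**Figure D3:**
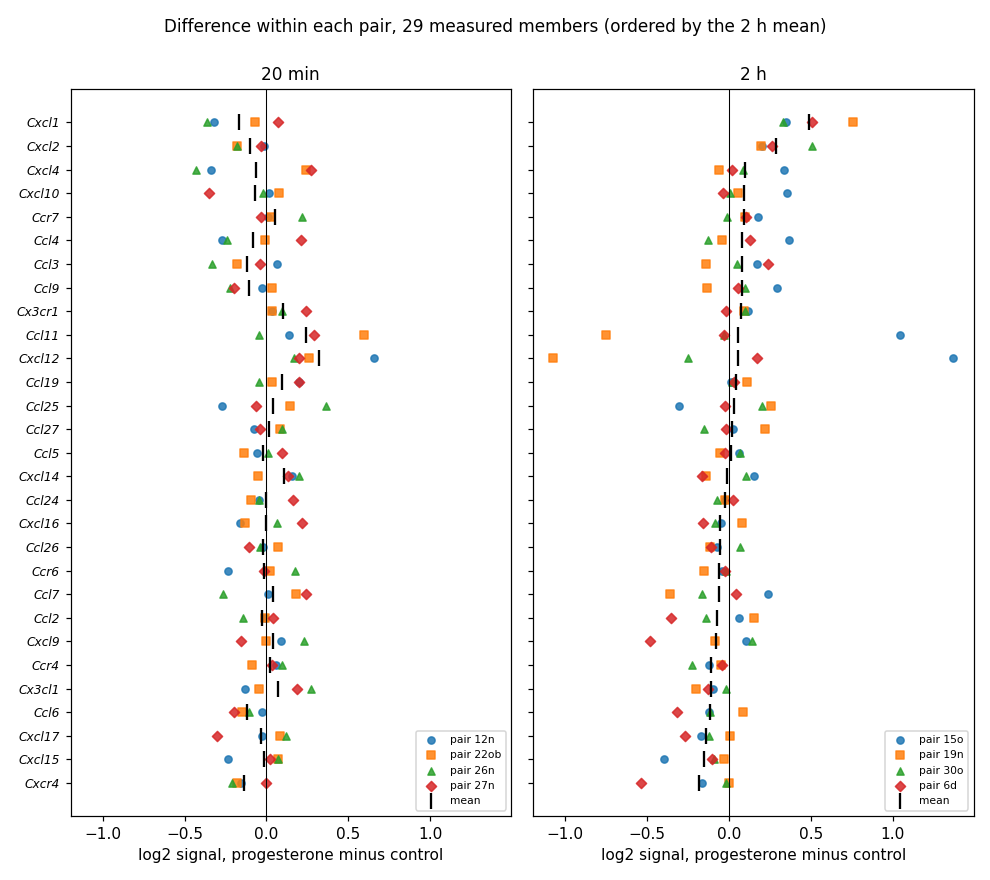
Progesterone minus control in log2 signal within each pair for 29 measured members, at 20 min (left) and 2 h (right), with a symbol for each pair and a bar for the mean. At 2 h the 4 pairs of Cxcl1 sit between 0.33 and 0.76 and those of Cxcl2 between 0.19 and 0.51, while the pairs of Cxcl12 spread from -1.07 to 1.37.

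Cxcl1 was higher with progesterone in 4 of 4 pairs of 2 h. The progesterone and control signals were 11.39 and 10.89 in pair 6d, 11.70 and 10.94 in 19n, 11.28 and 10.95 in 30o and 10.67 and 10.32 in 15o. Each pair had its progesterone array on top, although the lowest progesterone array lay under 3 of the controls. The mean difference was 0.49 ± 0.09 (SE, 95% confidence interval 0.28 to 0.69, n = 4 pairs), or 1.40-fold, with a p of 0.00049 before adjustment and an adjusted p of 0.9997 in limma. At 20 min Cxcl1 was lower with progesterone in 3 of 4 pairs, by a mean of -0.17 ± 0.08 (95% confidence interval -0.35 to 0.01), and by 0.01 in the other direction with no normalisation. Without pair 26n the mean was -0.11.

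Cxcl2 was also higher in 4 of 4 pairs of 2 h, with 8.202 and 7.94 in pair 6d, 8.22 and 8.03 in 19n, 8.16 and 7.65 in 30o and 7.77 and 7.57 in 15o. The mean difference was 0.29 ± 0.08 (95% confidence interval 0.11 to 0.47), with a p of 0.0056 before adjustment and an adjusted p of 0.9997 in limma. SAM gave it a q-value of 100%. Over the alternatives in the processing its difference at 2 h ran from 0.22 to 0.49. At 20 min Cxcl2 was lower in 4 of 4 pairs, with a mean of -0.10 ± 0.06 (95% confidence interval -0.24 to 0.04). There 4 of 4 control arrays and 2 of 4 progesterone arrays detected it, so part of these values lay near the negative controls.

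Whether the effect of progesterone differed between the times was tested across all 16 arrays with the pairs as blocks. Of all probes 1 was called (0.00594%) and of the 30 members 0, with 2 members, Cxcl1 and Cxcl2, at an unadjusted p under 0.05, beside 4.15% of all probes. The difference was 0.66 ± 0.13 for Cxcl1 (SE, adjusted p = 0.62 in limma) and 0.39 ± 0.10 for Cxcl2 (adjusted p = 0.999). Over the alternatives in the processing that of Cxcl2 ran from 0.32 to 0.84. Without pair 15o, Cxcl1 was called with a difference of 0.70 (adjusted p = 0.15 in limma), 1 of the 31 probes called there. The next members by p were Ccl3 (0.20 ± 0.11), Cx3cl1 (-0.18 ± 0.10) and Ccl9 (0.18 ± 0.11), each with an adjusted p of 0.999 in limma, and leaving out 1 pair took them to 0.13 and -0.11 (both without 26n) and 0.11 (without 15o).

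In some members all pairs moved one way. At 2 h 4 of the 30 members (13.3%) were higher with progesterone in all 4 pairs (among them Cxcl1, Cxcl2 and Ccl19), beside 5.03% of all probes, and 4 (13.3%) were lower in all 4 (Cx3cl1, Cxcl15, Ccr4 and Ccr6), beside 5.36%. Of these, Ccl19, Ccr4 and Ccr6 were detected on only 2, 0 and 1 of the 16 arrays. At 20 min 2 were higher in all 4 (Cxcl12 and Cx3cr1, beside 6.26%) and 3 lower (Cxcr4, Cxcl2 and Ccl6, beside 6.57%). Apart from Cxcl1 and Cxcl2, the mean differences of the members named at 2 h lay between -0.15 and 0.04. The -0.15 was that of Cxcl15, which leaving out 1 pair took to -0.07. Cxcr4 (-0.18 ± 0.10) and Cxcl17 (-0.14 ± 0.07) had an adjusted p of 0.9997 each in limma, and without pair 6d the value of Cxcr4 was -0.06.

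At 20 min Cxcl12 had the largest difference, 0.32 ± 0.08 (SE, 95% confidence interval 0.13 to 0.51, adjusted p = 0.95 in limma). The progesterone and control signals were 10.26 and 10.06 in pair 27n, 10.47 and 10.30 in 26n, 10.07 and 9.42 in 12n and 10.57 and 10.31 in 22ob. Its receptor gene Cxcr4 was -0.14 ± 0.06 (95% confidence interval -0.28 to -0.00031, and 0.02 with no normalisation) and Ccl11 0.24 ± 0.09 (0.03 to 0.45), with an adjusted p of 0.95 each in limma. The other 2 tested probes of Cxcl12 gave 0.02 and 0.09, and the other probe of Ccl11 gave -0.04. Without pair 12n the difference of Cxcl12 was 0.21, and without pair 22ob that of Ccl11 was 0.13. The stromal level was higher with progesterone by 0.20 in pair 12n and 0.31 in 22ob, and by 0.13 and -0.17 in 27n and 26n, and its part was not tested.

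At 2 h the same 2 ligands differed most between pairs, with opposite signs. Progesterone minus control was 1.37 in pair 15o and -1.07 in pair 19n for Cxcl12, and 1.04 and -0.75 for Ccl11. The stromal level differed by 1.21 in the former pair and by -0.62 in the latter, and the smooth muscle level by 1.27 and -1.05. In pairs 6d and 30o the differences of Cxcl12 were 0.17 and -0.25. The mean over the pairs was 0.05 ± 0.31 for Cxcl12 and 0.06 ± 0.23 for Ccl11, and the 95% confidence interval for Cxcl12 was as wide as -0.66 to 0.77. For Cxcl10, Cxcl16, Ccl2, Ccl3 and Ccl4, which changed with time, the intervals of the progesterone difference at 2 h all lay between -0.28 and 0.29.

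**Figure D4:**
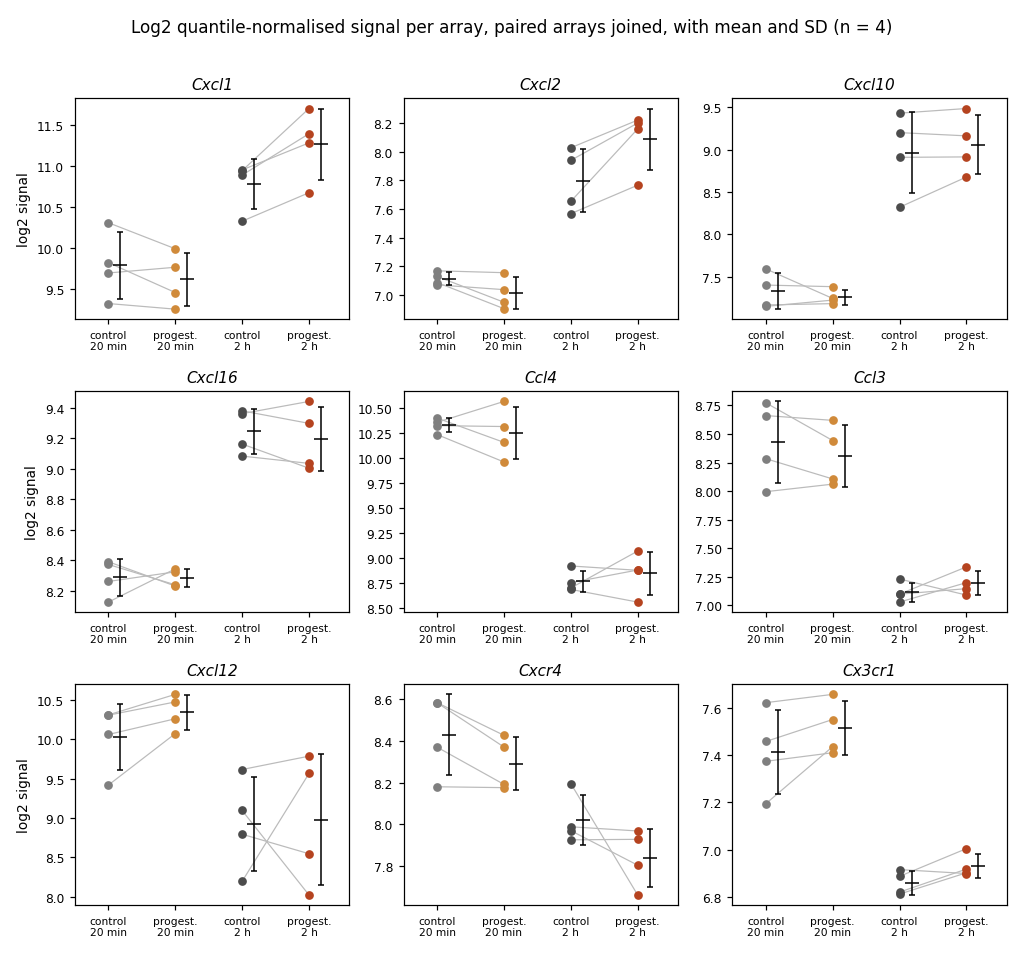
Log2 quantile-normalised signal of 9 members on each array by group, with lines joining the control and the progesterone array of a pair and a bar for the mean and SD (n = 4). The 2 h arrays of Cxcl10, Cxcl2 and Cxcl16 lie above all arrays of 20 min and those of Ccl4, Ccl3 and Cx3cr1 below them, and the lines of Cxcl1 and Cxcl2 slope upward in all 4 pairs of 2 h.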

How the data were processed

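The authors deposited, for each of 25697 probes and 16 arrays, a signal intensity summarised from the beads by Illumina software, before normalisation, and a detection p-value, whose steps give 798 negative controls per array. The deposited values name no genome build and give no chip for an array. The labels matched every array column to its sample, leaving 0 columns unmatched. Intensities were quantile-normalised over the 16 arrays and converted to log2 with limma 3.58.1 in R 4.3.3 (tables read by the package data.table, version 1.17.8). The study also used quantile normalisation, in GenomeStudio. Correlations between arrays ranged from 0.968 to 0.996, median intensities from 116 to 161, and 13222 to 14267 probes were detected per array. For arrays only their number limits the precision, and p-values measure the spread between pooled samples.

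Groups came from the labels, and 5 comparisons were fitted on all kept probes with lmFit and eBayes: progesterone against control within each time with the pair as a block (adjusted p of at most 0.20), the difference of these effects, and 2 h against 20 min in each arm (adjusted p of at most 0.05). The pairing comes from the paper, which used paired tests, and from the shared codes. Deviations from the group means of arrays with the same code correlated by 0.35 to 0.55 at 20 min and by 0.00049 to 0.65 at 2 h. The methods' statements of 1 tube per arm from each mouse and of 6 tubes from 3 animals per sample cannot both hold for 1 arm.

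The members, the lists of pathway genes and of markers, and the tests were chosen with earlier results of these data known. Genes were named by rule: Cxcl1, every member called in a comparison, the 5 smallest p where fewer than 5 were called, the 8 brightest, and their ligands or receptors. A few genes were named per list, for some lists more than 5. To obtain a marker level, each gene's log2 signal was centred on its mean over the arrays and averaged over the list. Dendritic cell, mast cell, ciliated and lymphatic markers had 0 calls over time, as had fat and red cell markers, while 1 B cell gene (Blnk) and 1 ovary gene (Inhba) rose in both arms. A paired SAM test was written for this work, and the fits were tested on simulated data. Alternatives were the scaling, the background, the filter, the choice of probe, the block, the threshold and each array left out; leaving out both pairs 19n and 15o, or probes without a definition, was added after seeing the data. The values of 1 measured member are not reported here, although counts over the members include it. Promoters are from RefSeq (GRCm38.p6). Matplotlib 3.10.9 (Python 3.11.15) drew the figures.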

Additional observations from a re-analysis of the deposited data

Results flagged for a closer look

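In 5 of the 84 groups of 4 arrays examined, 1 array stood apart by Dixon's test at the 95% level. About 1 in 20 groups does so by chance, or 4.2 of 84. Of these, 4 were arrays of pair 15o at 2 h. The control of 15o had a Cxcl1 signal of 10.32, where the other controls of 2 h had 10.89 to 10.95, and a Cxcl15 signal of 7.96, where the others had 7.02 to 7.16. The progesterone sample of 15o had a Cxcl2 signal of 7.77, where the others had 8.16 to 8.22, and a Cxcl14 signal of 8.13, where the others had 8.35 to 8.38. The control of 6d had a Ccl25 signal of 8.13, where the others had 8.33 to 8.36.

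The progesterone difference of Cxcl2 was below 0 in all 4 pairs of 20 min and above 0 in all 4 pairs of 2 h. Of the progesterone arrays of 20 min, 2 of 4 detected its probe. The difference between the times was 0.39, and its test in limma gave an adjusted p of 0.999.

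Ccl17 was outside the tests because it did not pass the detection rule. The 6 arrays that detected it were all of 2 h. Its log2 signals on those 6 arrays ran from 7.05 to 7.17, and on the 10 others from 6.72 to 6.85.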

How the results depend on the processing

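Fits without the pair as a replicate block gave 0 members called for progesterone at 2 h, at 20 min and in the difference between the times, as did the fits with the block. Paired SAM gave 1 member at 2 h, Cxcl1. Leaving out a pair gave 0 to 1 members in the difference between the times, the 1 without pair 15o. Over time, with the pairs as a random replicate block in 1 fit, 8 members rose and 5 fell in the controls, and 9 and 5 in the progesterone samples. With no normalisation 4 rose in the controls, and 5 rose and 8 fell in the progesterone samples, where median scaling gave 6 higher. Of all probes in the progesterone samples 37.2% were lower with no normalisation and 24.8% with median scaling. Without probes that have no definition, 2 fell in each arm, and without pairs 19n and 15o, 3 fell in the controls. Leaving out 1 array gave 3 to 5 lower in the controls. No normalisation reversed Cxcl1 (0.0127) and Cxcr4 (0.0244) at 20 min, and Cx3cl1 (-0.0168) and Ccl9 (-0.0064) over time in the progesterone samples. The causes were not tested. Ccl3, Ccl4, Cxcl2, Cxcl10, Cxcl16, Ccl2 and Cx3cr1 kept their direction and their call in both arms under every alternative that measured them. The random block lost the call of Ccl7 in the progesterone samples (adjusted p = 0.0536 in limma) and changed no other call. Of 231 single-gene values in the controls over time 31 lost the call and none reversed, and of 267 in the progesterone samples 34 lost it and 2 reversed. A background correction before normalisation made the changes of dim members larger, such as 1.80 for Ccl2, 1.59 for Cxcl2, 2.68 for Cxcl10 and -2.57 for Ccl3 in the controls. Detection at a p-value under 0.01 left 15 members on all 16 arrays and 23 on none. Members near the negative controls have compressed differences.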
